A study of Mus musculus with 15 samples.

Results

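MHC class I molecules present peptides on the cell surface, and 8 genes of this system were selected by symbol: *B2m*, *H2-K1*, *H2-D1*, *H2-T23*, *H2-M3*, *Tap1*, *Tap2* and *Tapbp*. Of these 8 genes, 4 (*B2m*, *H2-K1*, *Tap1* and *Tapbp*) had a row under that symbol among the 561 genes measured, and *H2-D1*, *H2-T23*, *H2-M3* and *Tap2* were not analysed here. All 4 were kept by the filter on low values, which asked for 20 or more counts on average, as were 269 of the 561 genes. The selection went by symbol and used no measured value, although earlier results of these data were known.

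A class I molecule is made of a polymorphic heavy chain (here the one encoded by *H2-K1*) and the invariant light chain β2-microglobulin, encoded by *B2m*, without which most heavy chains do not reach the cell surface in a stable form. Peptides cut from cytosolic proteins by the proteasome are carried into the endoplasmic reticulum by the transporter TAP, whose subunits are encoded by *Tap1* and *Tap2*. Tapasin, encoded by *Tapbp*, tethers empty class I molecules to TAP and favours the loading of stable peptides. Interferons and NF-κB are known to raise the transcription of these genes in macrophages.

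The mRNAs were counted in RAW macrophages, a mouse cell line, with the nanoString nCounter Mouse Immunology panel, which detects single mRNA molecules through hybridized barcoded probes. Every group received LPS together with extracellular vesicles (EVs) for 24 hours, and by design the groups differed in the mice that gave the EVs. The donors were female C57BL/6J mice of 6 to 8 weeks that were either sham-treated or given whole body ionizing radiation (WBIR) at 2 or 9 Gy, with plasma taken 3 or 7 days later, whereas no day was given for the sham mice. The 15 samples formed 5 groups of 3: sham, 2 Gy day 3, 2 Gy day 7, 9 Gy day 3 and 9 Gy day 7.

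The RAW line is virus-transformed and derived from a BALB/c mouse, so donor EVs and recipient cells differed in MHC haplotype, and no group without LPS or without EVs was analysed here. The study ran samples in triplicate, and nothing stated that the replicates came from separate cultures or separate mice, so the p-values measure only the spread between these samples, which may be technical. Of the samples titled 9 Gy day 3, replicates 1 and 2 carried a day label of 7, and they were grouped by title. The sample labels and the study's methods also differed in the number of EVs given and in the lysis reagent.

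The 9 Gy day 3 samples stood apart in depth, with 43176 to 87899 counts in all against 453178 to 837995 in the other groups, although the methods gave 100 ng of RNA for each hybridization. The geometric mean of the 14 housekeeping genes, per 100000 counts, was 73.2 to 80.0 in sham, 71.4 to 76.8 at 2 Gy, 141 to 170 at 9 Gy day 3 and 141 to 181 at 9 Gy day 7. The housekeeping genes therefore took a larger part of all counts in both 9 Gy groups, and the size of every change given relative to them depends on that choice, as described below. Of 12 measured macrophage markers, 10 had a mean of at least 20 counts in sham, and *Cd14* was the most abundant. Summed normalized counts of these 12 markers were 5096 to 8173 in sham, 2537 to 4118 at 9 Gy day 3 and 2523 to 3728 at 9 Gy day 7. Summed normalized counts of 11 T cell markers, led by *Cd8a*, were 175 to 195 in sham, 171 to 229 at 2 Gy, 88.1 to 136 at 9 Gy day 3 and 94.2 to 115 at 9 Gy day 7. Those of 6 B cell markers were 45.2 to 63.1 in sham, 49.5 to 59.8 at 2 Gy, 39.6 to 65.2 at 9 Gy day 3 and 29.2 to 33.9 at 9 Gy day 7. Those of 5 NK cell markers were 45.2 to 73.0 in sham, 58.3 to 85.8 at 2 Gy, 39.6 to 47.4 at 9 Gy day 3 and 39.3 to 49.4 at 9 Gy day 7. At 9 Gy day 3, no T, B or NK cell marker had a mean of at least 20 counts. The highest raw counts there were 12, 6 and 7, so these sums lie near the lowest deposited count of 1. They are not read as a fall at that day. The part of these markers in the results was not tested.

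The promoters of *B2m* and of class I heavy chain genes are known to hold a κB element, an interferon-stimulated response element (ISRE) and the X and Y boxes through which NLRC5 acts. The 250 bases upstream of the first listed start site are shown for 3 of the genes, *B2m* and *H2-K1* because they are the chains of the class I molecule and *Tap1* because it shares this stretch with a proteasome gene that moved by a different amount. Sequences were taken from RefSeq, assembly GRCm38.p6, in which all 4 genes matched by symbol, and run 5′ to 3′ on the strand of the gene. They cover chr2:122147437-122147686 on the plus strand for *B2m*, chr17:34000348-34000597 on the minus strand for *H2-K1* and chr17:34187306-34187555 on the plus strand for *Tap1*. Capitals mark matches to the ISRE core and to the κB consensus. The assembly is that of C57BL/6J, and the sequence in RAW cells may differ.
B2m: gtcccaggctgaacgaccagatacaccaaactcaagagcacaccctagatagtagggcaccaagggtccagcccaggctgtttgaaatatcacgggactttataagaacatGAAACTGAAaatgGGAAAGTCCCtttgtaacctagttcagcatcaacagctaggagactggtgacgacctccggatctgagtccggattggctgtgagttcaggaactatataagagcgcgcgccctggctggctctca
H2-K1: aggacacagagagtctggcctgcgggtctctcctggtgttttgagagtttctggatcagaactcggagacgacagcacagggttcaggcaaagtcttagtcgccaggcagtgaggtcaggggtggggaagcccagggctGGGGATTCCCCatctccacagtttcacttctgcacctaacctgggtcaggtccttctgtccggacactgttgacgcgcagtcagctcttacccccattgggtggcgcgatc
Tap1: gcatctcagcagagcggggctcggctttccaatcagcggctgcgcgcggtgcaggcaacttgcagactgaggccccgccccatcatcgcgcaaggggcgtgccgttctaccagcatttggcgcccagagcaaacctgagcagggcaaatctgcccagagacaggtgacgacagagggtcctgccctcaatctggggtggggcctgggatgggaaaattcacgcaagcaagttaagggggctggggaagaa

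Motifs were searched on both strands from 250 bases before to 49 after each start site, which was counted as position 0. The ISRE core (GAAANNGAA), present in 8.56% of 32851 promoters of this length, was found in *B2m* at -139 to -131. These exact letters were found in no other of the 4 promoters. An ISRE spelled otherwise would be missed, so the lack of a match does not show that *H2-K1*, *Tap1* or *Tapbp* lacks an ISRE. In *H2-K1*, the stretch agtttcacttct downstream of the κB match does not match these letters, and whether it is an ISRE was not tested. The κB consensus, present in 8.46% of promoters, was found in *B2m* at -126 to -117 and in *H2-K1* at -111 to -101, where matches on both strands overlap. RefSeq lists a second start site for *H2-K1*, from which the same κB match lies at -125 to -115. The X2 box core (TGACG), present in 20.8% of promoters, was found in *B2m*, *H2-K1* and *Tap1*, and the Y box core (CCAAT), present in 37.4%, in all 4. These are matches of letters in a short window and not sites of binding. *B2m* lies on chromosome 2, whereas *Tapbp*, *H2-K1* and *Tap1* lie in the MHC on chromosome 17.

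The first question was whether EVs from irradiated mice changed the level of class I mRNA in LPS-treated macrophages. At both days after 9 Gy, all 4 genes were lower than with sham EVs when counts were scaled to the housekeeping genes, and at 2 Gy none passed the test. Of all 269 tested genes, 41.3% were called lower at 9 Gy day 3 and 49.1% at 9 Gy day 7, and 0% were called at 2 Gy. *B2m* fell most of the 4, and the heavy chain, the transporter subunit and tapasin fell by less. The plot of normalized counts by sample shows these levels.

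**Figure D1:**
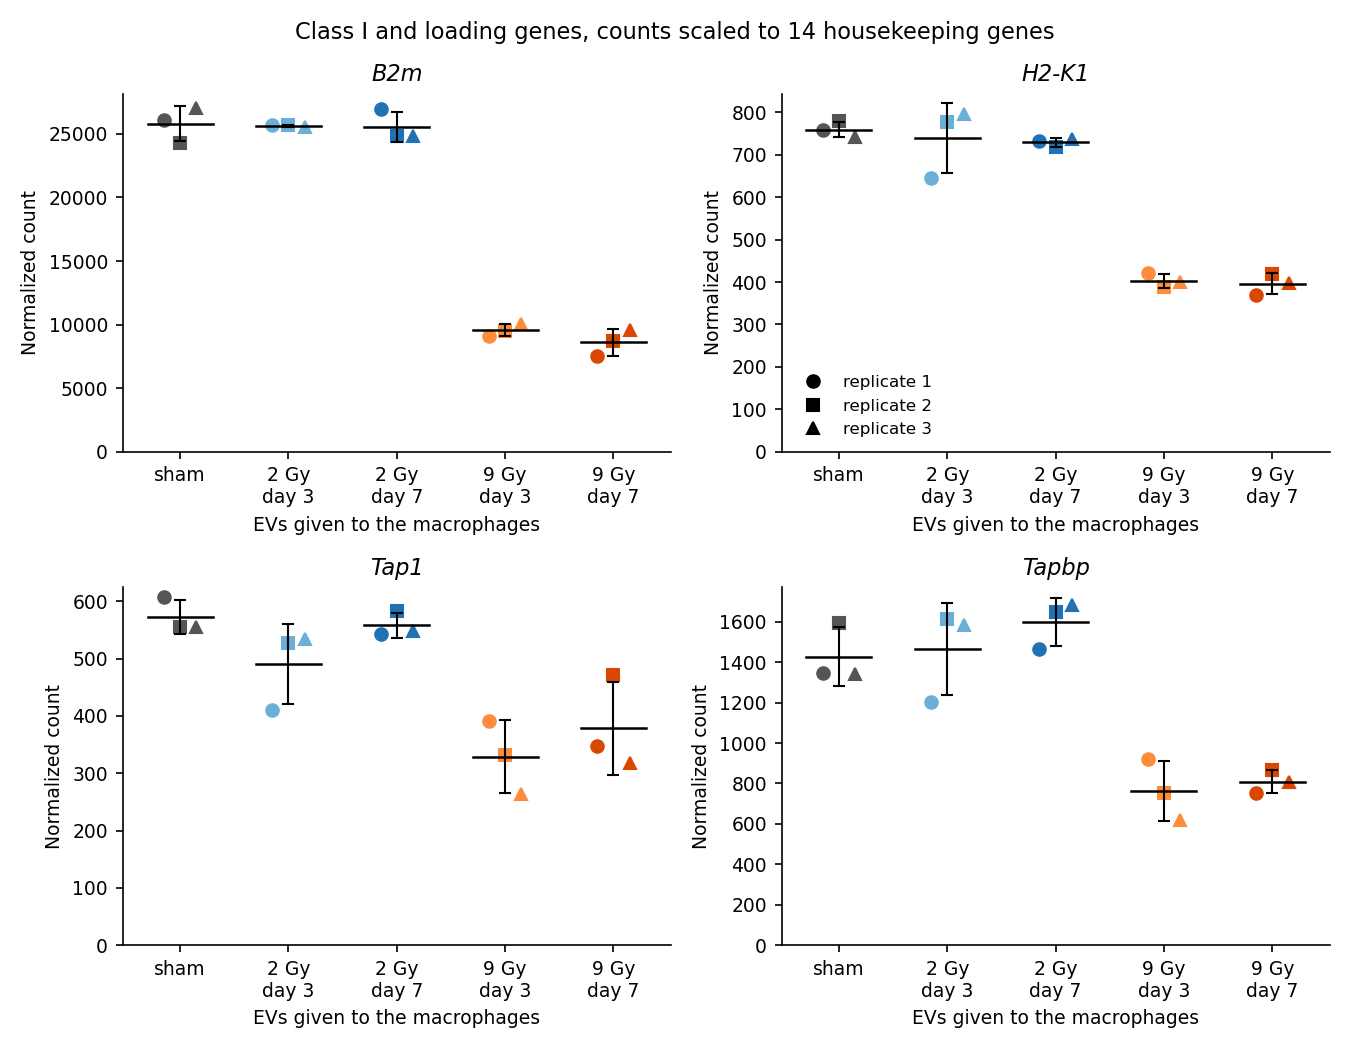
Normalized counts (raw counts scaled to the geometric mean of 14 housekeeping genes) of *B2m*, *H2-K1*, *Tap1* and *Tapbp* in the 15 samples, one panel a gene with its own axis from 0. Points are replicates 1 to 3 by shape, lines are group means and bars are SD (n = 3). For all 4 genes, each 9 Gy sample lies below each sham sample, as was true of 43.9% of the 269 tested genes at day 3 and 49.1% at day 7.

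*H2-K1* encodes the class I heavy chain H2-K. Raw counts in replicates 1, 2 and 3 were 840, 1012 and 984 with sham EVs, 71, 97 and 121 at 9 Gy day 3, and 751, 818 and 847 at 9 Gy day 7. After scaling, these were 759, 778 and 741 normalized counts in sham, 421, 388 and 400 at 9 Gy day 3, and 369, 419 and 399 at 9 Gy day 7. The 2 groups of 9 Gy samples did not overlap with sham, and the spread within groups was small (SD 18.7 in sham, 16.5 and 25.0 at 9 Gy). *H2-K1* was 1.89-fold lower at 9 Gy day 3 (log2 fold change -0.92 ± 0.12 SE, adjusted p = 2.2e-05 by the edgeR quasi-likelihood test, adjusted after Benjamini and Hochberg over 269 genes) and 1.92-fold lower at 9 Gy day 7 (-0.94 ± 0.11 SE, adjusted p = 1.1e-05). With 2 Gy EVs, *H2-K1* was at 645, 778 and 796 normalized counts at day 3 and at 733, 718 and 738 at day 7. Replicate 1 of 2 Gy day 3 was the lowest of these 6 samples, and the others lay among or close to the sham samples. Probe sequences were not given in the sources used here, and class I heavy chains are near-identical over long stretches, so the *H2-K1* count may hold signal from other heavy chains and is uncertain in that respect.

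*B2m* encodes the light chain shared by classical and most non-classical class I molecules. Raw counts in replicates 1, 2 and 3 were 28896, 31609 and 35880 with sham EVs, 1539, 2381 and 3038 at 9 Gy day 3, and 15251, 17087 and 20346 at 9 Gy day 7. In normalized counts, sham samples were at 26096, 24311 and 27019, 9 Gy day 3 samples at 9122, 9533 and 10032, and 9 Gy day 7 samples at 7500, 8752 and 9578. The highest 9 Gy sample thus lay far below the lowest sham sample. *B2m* was 2.70-fold lower at 9 Gy day 3 (log2 fold change -1.43 ± 0.11 SE, edgeR adjusted p = 1.7e-07) and 3.00-fold lower at 9 Gy day 7 (-1.58 ± 0.11 SE, adjusted p = 5.0e-08). The 2 Gy samples were between 24850 and 26926 normalized counts, within the sham range. In raw counts, *B2m* made up 4.33 to 5.13% of all counts in sham, 3.46 to 3.94% at 9 Gy day 3 and 3.29 to 3.77% at 9 Gy day 7, so its share of all counts also did not overlap with sham.

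*Tap1* encodes a subunit of the peptide transporter. Raw counts in replicates 1, 2 and 3 were 673, 723 and 737 with sham EVs, 66, 83 and 80 at 9 Gy day 3, and 708, 919 and 675 at 9 Gy day 7. In normalized counts, sham samples were at 608, 556 and 555, 9 Gy day 3 samples at 391, 332 and 264, and 9 Gy day 7 samples at 348, 471 and 318. The 9 Gy samples lay below every sham sample but spread more widely than those of *H2-K1*, with a coefficient of variation of 19.3% and 21.4%. *Tap1* was 1.75-fold lower at 9 Gy day 3 (log2 fold change -0.81 ± 0.18 SE, edgeR adjusted p = 0.0023) and 1.51-fold lower at 9 Gy day 7 (-0.60 ± 0.17 SE, adjusted p = 0.0085). With 2 Gy EVs, *Tap1* was at 410, 527 and 535 normalized counts at day 3 and at 542, 582 and 549 at day 7. Replicate 1 of 2 Gy day 3, at 410, was lower than replicate 2 of 9 Gy day 7, so both doses overlapped in this gene.

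*Tapbp* encodes tapasin. Raw counts in replicates 1, 2 and 3 were 1492, 2072 and 1781 with sham EVs, 155, 188 and 188 at 9 Gy day 3, and 1531, 1694 and 1713 at 9 Gy day 7. In normalized counts, sham samples were at 1347, 1594 and 1341, 9 Gy day 3 samples at 919, 753 and 621, and 9 Gy day 7 samples at 753, 868 and 806. All 9 Gy samples were below all sham and all 2 Gy samples, the lowest of which was replicate 1 of 2 Gy day 3 at 1205. *Tapbp* was 1.88-fold lower at 9 Gy day 3 (log2 fold change -0.91 ± 0.16 SE, edgeR adjusted p = 0.00037) and 1.76-fold lower at 9 Gy day 7 (-0.82 ± 0.16 SE, adjusted p = 0.00056). In cultures measured in bulk, fewer cells with a given mRNA and less of that mRNA per cell cannot be told apart.

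These counts must be read against the whole panel, much of which was lower with 9 Gy EVs. Of the 269 genes tested, 41.3% were called lower at 9 Gy day 3 and 49.1% at 9 Gy day 7, against 4 of 4 class I genes at each day. The day 3 share was 26% without the 2 samples of conflicting day label and 24.5% with them placed at day 7, with 4 of 4 class I genes called lower in both cases. Both leave 1 sample at 9 Gy day 3, which is assumed to vary like the other groups, so these calls have no replicate check. The share of genes whose 9 Gy samples all lay below all sham samples was 43.9% at day 3 and 49.1% at day 7, again against 4 of 4. The median log2 fold change of all tested genes was -0.46 at day 3 and -0.45 at day 7, and that of the class I genes -0.91 and -0.88. Relative to the median gene, *B2m* was at -0.98 and -1.13, *H2-K1* at -0.46 and -0.49, *Tapbp* at -0.45 and -0.37, and *Tap1* at -0.35 and -0.15 on the log2 scale at day 3 and day 7. Ranked from the most lowered gene, *B2m* was 45 of 269 at day 3 and 33 at day 7, whereas *Tap1* was 97 and 125. *Tap1* at day 7 was thus close to the middle of the panel, and *B2m* was not.

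Both 9 Gy groups were also compared with both 2 Gy groups, to ask for the dependence on dose. *B2m* was 2.82-fold lower (log2 fold change -1.50 ± 0.07 SE, edgeR adjusted p = 1.1e-09), *Tapbp* 1.95-fold (-0.96 ± 0.11, adjusted p = 4.9e-06), *H2-K1* 1.84-fold (-0.88 ± 0.08, adjusted p = 4.1e-07) and *Tap1* 1.49-fold (-0.57 ± 0.12, adjusted p = 0.0011). All 4 were called lower, against 52% of the 269 genes. In 3 of the 4, all but *Tap1*, the 9 Gy and 2 Gy samples did not overlap, against 36.1% of the genes. The comparisons with sham share the sham samples, and this one shares the 9 Gy samples with them, so they are not independent of each other.

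With 2 Gy EVs, none of the 4 genes was called at either day, as was true of 0% of the 269 genes by edgeR's test at an adjusted p under 0.05. The log2 fold changes of the 4 genes against sham were -0.22 to 0.04 at day 3 and -0.06 to 0.16 at day 7, with standard errors of 0.10 to 0.17, and the lowest unadjusted p was 0.213. Over all genes, 7 at day 3 and 1 at day 7 had an unadjusted p under 0.05, none of them a class I gene, and DESeq2 called 1 and 0. The day comparisons gave log2 changes from day 3 to day 7 of -0.02 to 0.18 at 2 Gy and of -0.15 to 0.21 at 9 Gy. The difference of these changes between doses was -0.15 to 0.03. None of the 4 genes was called in these 3 comparisons. Without a replicate block they likewise called 0% of the 269 genes by edgeR, with 4, 6 and 4 genes at an unadjusted p under 0.05 and none by DESeq2. With same-numbered samples paired by a replicate block in a fit of only the 2 groups compared, edgeR called 10% of the 269 genes between the days at 2 Gy (3 lower and 24 higher at day 7) and again none of the 4 class I genes, the nearest being *Tap1* at a log2 change of 0.19 (adjusted p = 0.208). In the same fit over all groups, and at 9 Gy in either fit, the block called 0 genes. With counts under 20 set to 20 and no block, edgeR called 87 of the 269 genes lower at day 7 than at day 3 at 9 Gy and 73 lower in the difference between doses, again none of them a class I gene. This floor acts on raw counts, so it lifts low genes most in the shallow 9 Gy day 3 samples. Those had 190 to 246 genes at the lowest count of 1, against 6 to 10 at 9 Gy day 7. These calls cannot be told apart from the difference in depth.

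Since the housekeeping genes took a larger share of all counts at 9 Gy, the 4 genes were followed under other scalings. *B2m* was called lower at 9 Gy under every scaling tried, with log2 fold changes of -0.96 and -1.10 with TMM, which balances the bulk of the genes, and of -0.41 and -0.49 relative to total counts, at day 3 and day 7. *H2-K1* was lower with TMM (-0.44 and -0.46) but 0.11 and 0.17 relative to total counts, where neither passed the test. *Tapbp* was at -0.44 and -0.34 with TMM, where it was called at day 3 (edgeR adjusted p = 0.0198) and not at day 7 (adjusted p = 0.0501), and at 0.13 and 0.29 relative to total counts, where neither passed the test. *Tap1* was at -0.34 and -0.11 with TMM, without passing the test, and at 0.22 and 0.53 relative to total counts, where the day 7 value was called higher (edgeR adjusted p = 0.0416). The direction of *H2-K1*, *Tapbp* and *Tap1* therefore depended on the scale, and that of *B2m* did not. The split of all tested genes moved with the scale as well, from 111 lower and 30 higher at day 3 with housekeeping scaling to 60 and 59 with TMM and 33 and 121 relative to total counts.

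**Figure D2:**
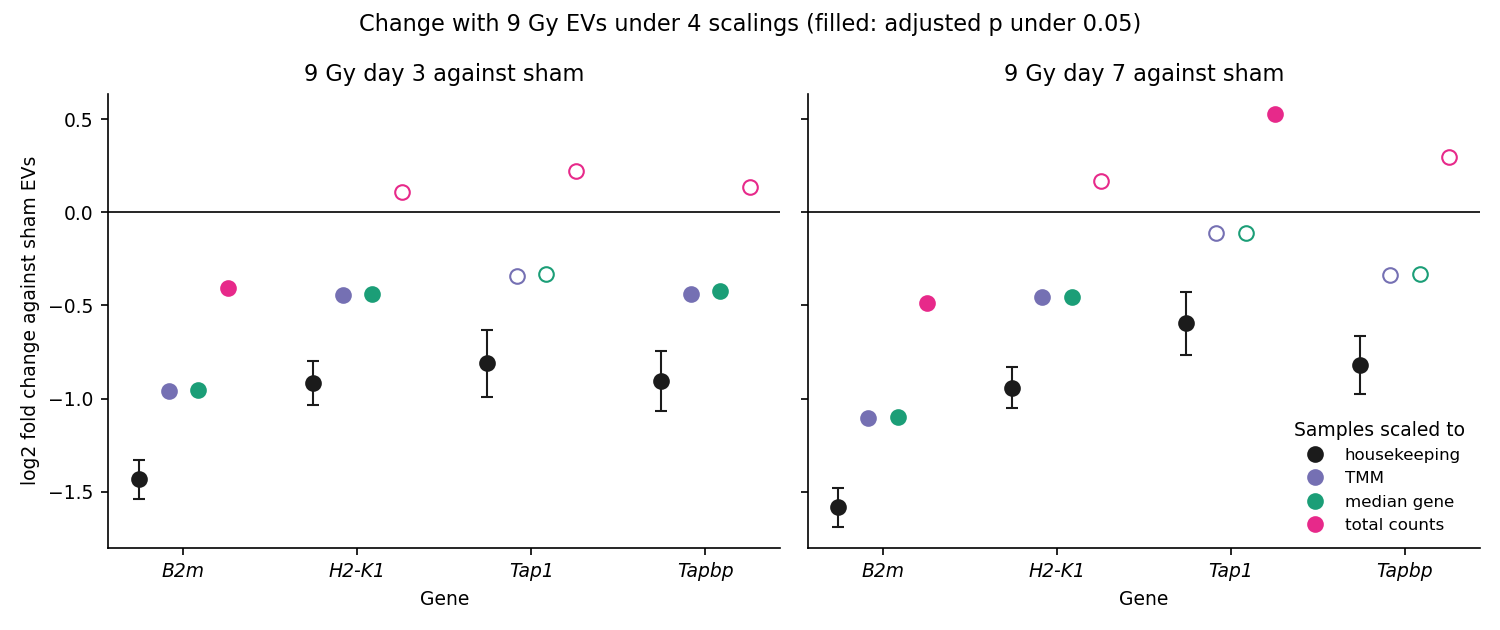
Log2 fold change of *B2m*, *H2-K1*, *Tap1* and *Tapbp* with 9 Gy EVs against sham EVs (n = 3 a group), at day 3 (left) and day 7 (right), with samples scaled to the housekeeping genes (bars, ± SE), by TMM, to the median gene or to total counts. Filled points passed an adjusted p under 0.05. *B2m* lies below 0 under all 4 scalings, and the other 3 genes lie above 0 relative to total counts.

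The same was done with each of the 14 housekeeping genes alone as the scale, a check added after the data were seen and read as values without a test. *B2m* and *H2-K1* were lower with 9 Gy EVs against 14 of 14 housekeeping genes at both days, as were 38.7% of the 256 tested genes other than the housekeeping genes at day 3 and 34.8% at day 7. The smallest of these differences for *H2-K1*, -0.11 relative to *Hprt* at day 3 and -0.07 relative to *Rpl19* at day 7, were below the standard errors of its log2 fold change on the scale of all 14 housekeeping genes, 0.12 and 0.11. *Tapbp* was lower against 14 at day 3 and 13 at day 7, and *Tap1* against 14 and 11. Against single genes, the log2 change of *B2m* ranged from -2.84 relative to *Tubb5* to -0.63 relative to *Hprt* at day 3, so the size of the fall varied with the gene taken as the scale by more than its standard error.

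A ratio of 2 genes within a sample needs no scaling, so the other 3 genes were set against *B2m* in raw counts. Counts per 1000 *B2m* counts compare samples and not genes, since probes differ in efficiency. With 9 Gy EVs, all 3 ratios were higher than with 2 Gy EVs, that is, the light chain mRNA was lower relative to the heavy chain, transporter and tapasin mRNAs. The same held for most of the panel: of the other 268 tested genes, 85.1% had a higher mean ratio to *B2m* at 9 Gy than at 2 Gy, and 59.7% with no overlap between the samples. A higher ratio to *B2m* is therefore not particular to the class I genes. The plot of these ratios shows all samples.

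**Figure D3:**
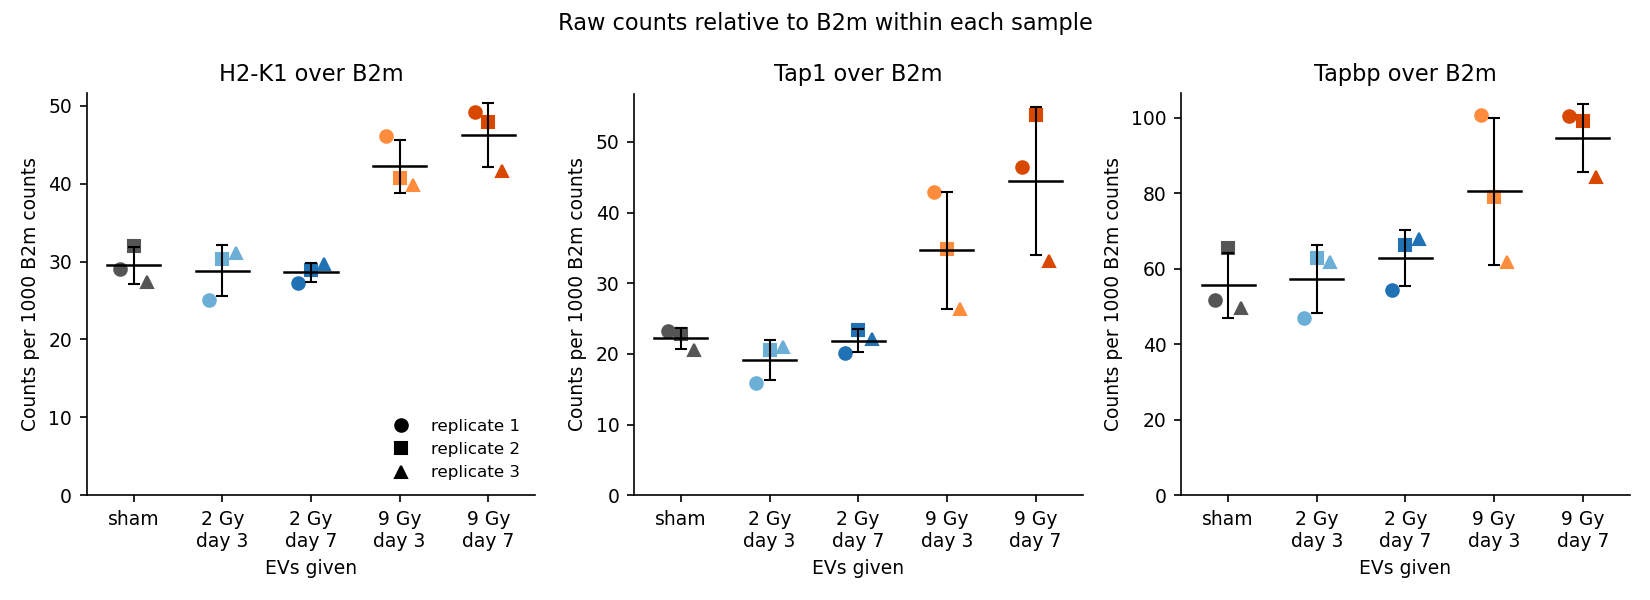
Raw counts of *H2-K1*, *Tap1* and *Tapbp* per 1000 raw *B2m* counts in each of the 15 samples, one panel a ratio with its own axis from 0. Points are replicates 1 to 3 by shape, lines are group means and bars are SD (n = 3). Of the 6 samples with 9 Gy EVs, 6, 6 and 5 lie above all 6 samples with 2 Gy EVs in the 3 panels, and 59.7% of the other 268 tested genes likewise have no overlap in their ratio to *B2m*.

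Per 1000 *B2m* counts, *H2-K1* had 29.1, 32.0 and 27.4 counts in sham, 46.1, 40.7 and 39.8 at 9 Gy day 3, and 49.2, 47.9 and 41.6 at 9 Gy day 7. The 2 Gy samples had 25.1 to 31.1. The heavy chain to light chain ratio was 1.54-fold higher at 9 Gy than at 2 Gy (log2 difference 0.62, 6 samples against 6, two-sided exact permutation test p = 0.00216, the smallest this design allows, adjusted p = 0.00325 over the 3 ratios), and all 6 samples with 9 Gy EVs lay above all 6 with 2 Gy EVs.

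*Tap1* had 23.3, 22.9 and 20.5 counts per 1000 *B2m* counts in sham, 42.9, 34.9 and 26.3 at 9 Gy day 3, and 46.4, 53.8 and 33.2 at 9 Gy day 7. The 2 Gy samples had 16.0 to 23.4. This ratio was 1.89-fold higher at 9 Gy than at 2 Gy (log2 difference 0.92, exact permutation p = 0.00216, adjusted p = 0.00325), with no overlap between doses.

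*Tapbp* had 51.6, 65.6 and 49.6 counts per 1000 *B2m* counts in sham, 101, 79.0 and 61.9 at 9 Gy day 3, and 100.4, 99.1 and 84.2 at 9 Gy day 7. The 2 Gy samples had 46.9 to 67.8. This ratio was 1.45-fold higher at 9 Gy than at 2 Gy (log2 difference 0.54, exact permutation p = 0.0108, adjusted p = 0.0108), with 5 of 6 samples above all 2 Gy samples, the exception being replicate 3 of 9 Gy day 3.

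Against sham, with 6 samples and 3, the log2 differences at 9 Gy were 0.58 for *H2-K1*, 0.79 for *Tap1* and 0.64 for *Tapbp* relative to *B2m*, with exact permutation p of 0.0238, 0.0238 and 0.0476 (0.0357, 0.0357 and 0.0476 adjusted over the 3 ratios), where 0.0238 is the smallest p this design allows. Between 2 Gy and sham, the exact permutation p were 0.643, 0.310 and 0.500. In both 9 Gy groups, replicate 3 had the lowest of the 3 values for each ratio. At day 3 its *Tapbp* value of 61.9 lay within the sham range, whereas its *H2-K1* and *Tap1* values lay above all sham samples. These tests treat the day 3 and day 7 samples of a dose as separate, although same-numbered samples of both days deviated together. With those averaged, a setting added after the data were seen, there are 3 values against 3 and the exact permutation p was 0.1 for each ratio at 9 Gy, against 2 Gy and against sham, the smallest that 3 against 3 allows, with all 3 averages at 9 Gy above all 3 at 2 Gy. The ratio differences therefore did not pass a threshold of 0.05 when the pairing was kept. The ratios of *H2-K1*, *Tap1* and *Tapbp* among themselves moved by less, with log2 differences of -0.30 for *H2-K1* over *Tap1*, 0.09 for *H2-K1* over *Tapbp* and 0.38 for *Tap1* over *Tapbp* between 9 and 2 Gy, given without a test.

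The steps before peptide transport were looked at through a list of 24 genes of the proteasome and class I partners, of which 9 were measured and 4 tested. All 4 were proteasome subunits and were called lower at both 9 Gy days with housekeeping scaling, beside 41.3% and 49.1% of all tested genes. With TMM 2 of the 4 were called lower at each day, whereas relative to total counts 2 were lower and 1 higher at day 3, and 0 lower and 2 higher at day 7. Of all 269 genes, TMM called 60 lower at day 3 and 76 at day 7, and scaling to total counts called 33 and 31 lower and 121 and 143 higher. *Psmb9* and *Psmb10*, interferon-inducible subunits of the immunoproteasome, had log2 fold changes of -1.83 and -1.43 at day 3 and of -1.31 and -1.14 at day 7. *Psmb5* and *Psmb7*, subunits of the constitutive proteasome, were at -0.36 and -0.70 at day 3 and at -0.47 and -0.72 at day 7. At 2 Gy none of the 4 was called. As a median over the list, the log2 fold change was -1.07 at day 3 and -0.93 at day 7, beside -0.46 and -0.45 for all tested genes. The 5 untested genes of the list, *Cd1d1*, *Mr1*, *H2-Q10*, *Cd160* and *Fcgrt*, among them non-classical class I genes, had at most 27 counts in any sample.

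*Tap1* and *Psmb9* are transcribed away from each other from start sites 226 bases apart on chromosome 17, and the stretch between them lies within the *Tap1* sequence printed above. *Psmb9* was at 201 to 245 normalized counts in sham, 47.4 to 72.7 at 9 Gy day 3 and 71.3 to 110 at 9 Gy day 7. Within samples, the log2 ratio of *Tap1* over *Psmb9* was 1.53 to 3.04 in the 6 samples with 9 Gy EVs and 0.98 to 1.42 in the 6 with 2 Gy EVs, a mean difference of 1.07 without overlap, given without a test. The ratio to *Psmb9* was likewise higher at 9 Gy without overlap for 59% of the other 268 tested genes, *Tapbp* among them (at least 2.87 against at most 2.85), so this is not particular to *Tap1*. On average *B2m* kept closer to the immunoproteasome genes, with log2 differences between 9 and 2 Gy of 0.15 for *B2m* over *Psmb9* and 0.01 for *B2m* over *Psmb10*. Against sham these were 0.09 and -0.21. Single samples spread more, with *B2m* over *Psmb9* at 6.44 to 7.59 at 9 Gy and 6.65 to 7.06 at 2 Gy. For *B2m* over *Psmb10* the ranges were 5.67 to 6.36 and 5.92 to 6.27. The 9 Gy day 3 values of *Psmb9* rested on 8 to 22 raw counts and carry a large counting error.

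Of 27 regulators of class I transcription, 20 were measured and 17 tested. With housekeeping scaling, 8 of the 17 were called lower and 3 higher at 9 Gy day 3, and 9 lower and 2 higher at day 7, where 41.3% and 49.1% of all tested genes were called lower, a like share. With TMM 5 were lower and 5 higher at day 3, and 6 lower and 5 higher at day 7, whereas relative to total counts 2 were lower and 7 higher at day 3, and 3 lower and 8 higher at day 7. Over all 269 genes, TMM called 60 lower and 59 higher at day 3 and 76 and 75 at day 7, and total counts 33 and 121 at day 3 and 31 and 143 at day 7. The median log2 fold changes of the 17 regulators were -0.55 and -0.60, close to that of all tested genes. No regulator was called at 2 Gy. *Irf3*, *Ifna1* and *Ifng* were too low to test, with at most 19 counts.

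Among the regulators called at both days, *Irf7*, a transcription factor of the interferon response, had a log2 fold change of -2.44 at day 3 and of -2.36 at day 7. *Nfkb2*, an NF-κB subunit, was at -2.30 and -2.06. Both chains of the type I interferon receptor were lower as well, with log2 fold changes at day 3 and day 7 of -1.09 and -0.93 for *Ifnar2* and -0.74 and -0.85 for *Ifnar1*. Of the chains of the type II interferon receptor, *Ifngr2* was lower, at -1.44 and -1.61, and *Ifngr1* was not called, at 0.19 and -0.08. The receptor kinase *Jak1* was at -0.67 and -0.77, whereas the receptor kinase *Tyk2* was called higher at both days, at 1.28 and 0.76. *Rela*, an NF-κB subunit, was called higher only at day 3, at 0.55 against 0.24 at day 7, a difference between days that was not called. *Ifngr1*, *Tyk2* and *Rela* were named after their values were seen. *Ifnb1*, which encodes interferon β, went the other way, from 7.53 to 30.8 normalized counts in sham to 122 to 545 at 9 Gy day 3 and 118 to 364 at 9 Gy day 7 (log2 fold change 4.25 ± 0.68 SE and 3.95 ± 0.65 SE). The interferon β mRNA and the class I mRNAs thus moved in opposite directions with housekeeping scaling.

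**Figure D4:**
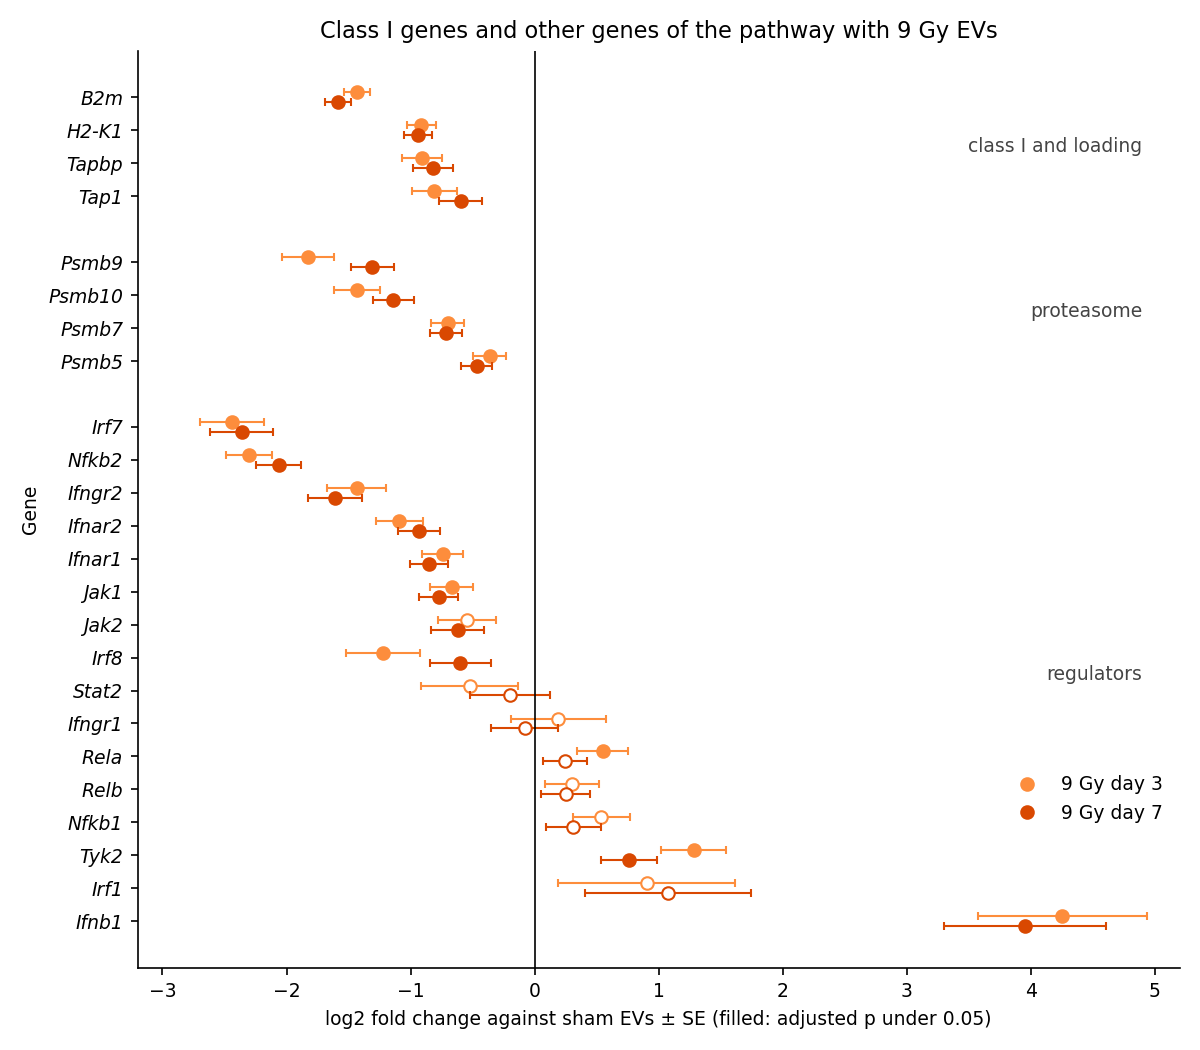
Log2 fold change ± SE with 9 Gy EVs against sham EVs, housekeeping scaling, n = 3 a group, for the 4 class I and loading genes, the 4 proteasome genes and 16 of the 17 regulators tested, at day 3 and day 7. Filled points passed an adjusted p under 0.05. The class I and proteasome genes lie below 0, and *Ifnb1* is the farthest above 0.

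Among all tested genes, those nearest to each class I gene were found by the root mean square difference of log2 normalized counts, relative to the sham mean, over the 12 samples with EVs of irradiated mice. Nearest to *B2m* were *Fcer1g* (0.17), *Gm10499* (0.17) and *Bst2* (0.18). *Gm10499*, with the RefSeq synonym MumuTL, lies on chromosome 17 as *H2-K1* does, and whether it is itself a class I gene was not examined. Nearest to *H2-K1* were *Ncf4* (0.16) and *Arhgdib* (0.16), nearest to *Tapbp* were *H2-K1* (0.18), *Ctss* (0.19) and *Cybb* (0.20), and nearest to *Tap1* were *Cd44* (0.17), *Ifnar1* (0.22) and *Tapbp* (0.23). *H2-K1* was thus the gene nearest to *Tapbp*, whereas none of *H2-K1*, *Tap1* and *Tapbp* was among the 3 nearest to *B2m*.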

How the data were processed

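Gene expression in 15 samples was measured on the nanoString nCounter Mouse Immunology panel. The authors deposited raw counts per gene as whole numbers, with a lowest count of 1, in 1 table of 561 genes. Control probes and the nSolver normalization named by the methods were not used here, so no background was subtracted. Samples were grouped by title, which decided the day of 2 samples with another day label. Total counts ranged from 43176 to 837995, and standard errors cover the spread between samples only.

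Each sample was scaled by the geometric mean over 14 housekeeping genes on the panel. The 269 genes that averaged 20 or more counts were fitted with edgeR 4.0.16 (quasi-likelihood test, prior count 0.125, R 4.3.3) over all 5 groups with no covariate, and p-values were adjusted by Benjamini-Hochberg over the 269 genes at a threshold of 0.05. The fit was tested on simulated data. Ratios of raw counts were compared by two-sided exact permutation tests with SciPy 1.17.1. Of 9 planned ratios, 3 had both genes in the table. Alternatives were other scalings, filters on low counts, DESeq2 1.42.0, fits of only the groups compared, a replicate block, other handling of the 2 samples with conflicting labels, and leaving out each sample in turn.

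Replicate numbers in the titles were checked for pairing. Deviations from the group means correlated by 0.365 to 0.779 between same-numbered samples of the 2 Gy groups and by 0.330 to 0.717 between those of the 9 Gy groups. Between differently numbered samples they correlated by -0.684 to 0.611 at 2 Gy and by -0.669 to 0.421 at 9 Gy. These ranges overlap, so the data do not single out pairing by number. The numbers were nonetheless taken as paired for the day comparisons, from the data and not from a stated design. In other pairs of groups, some same-numbered samples correlated negatively.

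The genes described and the lists were chosen with earlier results of these data known. Named genes were the class I genes, up to 8 genes of each list called at both 9 Gy days by smallest p at day 7, and the 3 tested genes nearest to each class I gene. Values of 1 gene that these rules name are not reported here. Promoter sequences were from RefSeq, GRCm38.p6.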

Additional observations from a re-analysis of the deposited data

How the results depend on the processing

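The 4 class I genes stayed called lower with 9 Gy EVs, against sham at both days and against 2 Gy, when each of the 15 samples was left out in turn (4 called in every case, and 0 in the 2 Gy, day and interaction comparisons). The count of called class I genes changed with the scaling. It was 1 at 9 Gy day 3 relative to total counts, and at 9 Gy day 7 it was 2 with TMM, 2 with the median gene and 2 relative to total counts (1 lower, 1 higher). Of all 269 genes, the same fits called 154 at day 3, and 151, 153 and 174 at day 7. For 9 Gy against 2 Gy, 3 class I genes were called relative to total counts (1 lower, 2 higher), beside 204 of all 269 genes (36 lower, 168 higher). Signs turned only relative to total counts, in which *H2-K1* was 0.11 at day 3, 0.17 at day 7 and 0.26 against 2 Gy (edgeR adjusted p = 0.0203), *Tap1* 0.22, 0.53 and 0.58 (adjusted p = 0.00337 for the last), and *Tapbp* 0.13, 0.29 and 0.19. The cause was not tested. *Tap1* also lost its call with TMM, the median gene and DESeq2's own size factors in all 3 comparisons (log2 fold changes of -0.11 to -0.34) and with the stricter housekeeping set at day 7 (-0.39), and *Tapbp* at day 7 with TMM (-0.34) and the median gene (-0.33). Filters on low counts, a floor of 20 counts, another prior count, DESeq2 with housekeeping scaling and fits of only the groups compared changed no call of a class I gene. Nor did leaving out the samples with conflicting labels or placing them at day 7, but at 9 Gy day 3 both rest on 1 sample, assumed to vary like the other groups. Over all 269 genes, the count called at 9 Gy day 3 was 141 and fell to 78 without the samples with conflicting labels and to 74 with them at day 7, again with 1 sample in that group. At 9 Gy day 7 it was 164, and 109 of 164 genes with a mean of at least 100. The floor of 20 counts raised the calls from 0 to 87 between the days at 9 Gy and to 73 in the interaction. At 9 Gy day 3 against sham, it moved the split from 111 lower and 30 higher to 86 and 97. The median log2 fold change of all tested genes there went from -0.46 to 0.12, and these shifts cannot be told apart from the low depth of that group. In other settings, 1 gene was called at 2 Gy day 7 with no filter and 1 at 2 Gy day 3 by DESeq2.

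With a replicate block, 4 class I genes were called at 9 Gy day 3 and 4 at day 7 (*B2m* -1.43 and -1.59). Of all 269 genes, the block called 146 and 172 in the fit over all groups, and 114 and 143 with only the groups compared. In the day comparisons 0 class I genes were called, and the block changed no class I call, although in the fit of only the 2 groups compared it called 27 of all 269 genes between the days at 2 Gy, against 0 without it. The ratios to *B2m* within single days, where 3 samples against 3 cannot go below an exact permutation p of 0.1, were 0.55, 0.84 and 0.48 (log2, *H2-K1*, *Tap1* and *Tapbp*) at day 3 and 0.69, 1.00 and 0.59 at day 7. With same-numbered samples of both days averaged, the differences were 0.62, 0.92 and 0.54 (exact permutation p = 0.1 each). Leaving out each sample gave 0.58 to 0.65, 0.82 to 1.03 and 0.47 to 0.63. The 9 Gy day 3 samples, with the fewest counts, limit the precision for low genes.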
